A study of Mus musculus with 4 samples.

Results

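Adhesion G protein-coupled receptors other than Gpr124 were followed in brain endothelial cells with and without endothelial PD-1. The members were taken by gene name, not by their values, though with earlier results of these data known. They are Adgrl1, Adgrl2, Adgrl3, Adgrl4, Adgrf5, Adgrg1, Adgrg6, Adgre5, Adgrb2 and Adgrb3. All 10 were found among the 21578 genes of the deposited tables. The cells came from C57BL/6 mice at postnatal day 0 (P0) and were purified. The study's methods describe sorting of brain cells labelled for CD31 and CD45 and growth of the sorted cells in dishes, and do not state whether the RNA was taken before or after growth. There were 2 libraries from Pd1fl/fl mice, which carry floxed Pd1 without the Cre and are called controls below, and 2 from Pd1cKO-Tie2 mice, in which Tie2-Cre deletes the floxed gene. Tie2-Cre is active in endothelium and also in part of the blood cell lineage. The labels give neither the number of animals per library nor whether the libraries of a genotype came from separate animals, so the p-values measure only the spread between these libraries. Library numbers follow the table columns. Column 2 of Pd1cKO-Tie2 has a number that no sample label carries.

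Adhesion receptors join a long extracellular region, which binds matrix or proteins on other cells, to a membrane part with the fold of a G protein-coupled receptor. Most of them cut themselves at a short site next to the membrane, the GPCR proteolysis site, and the peptide behind the cut can act as a tethered activator. Gpr124, listed as Adgra2, is the member best known in brain vessels, where it works with Reck as a receptor for Wnt7. The others have been studied in endothelium (Adgrl4 and Adgrf5), at synapses (the latrophilins Adgrl1, Adgrl2 and Adgrl3, and the Bai receptors Adgrb2 and Adgrb3), on leukocytes (Adgre5) and in glia and their precursors (Adgrg1 and Adgrg6).

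The coding sequence at the proteolysis site is shown because its pattern was found in all 10 members and was not used to choose them. Each line gives 36 bases of the messenger strand, 5′ to 3′, read from GENCODE M21 transcripts of GRCm38, and each lies inside 1 coding exon. The 3 codons in capitals are those of the last 2 residues before the cut and of the first residue after it.
Adgrl1, chr8:83933991-83934026, forward strand: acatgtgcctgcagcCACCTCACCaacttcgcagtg
Adgrl2, chr3:148837588-148837623, reverse strand: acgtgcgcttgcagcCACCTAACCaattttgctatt
Adgrl3, chr5:81694568-81694603, forward strand: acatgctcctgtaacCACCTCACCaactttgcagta
Adgrl4, chr3:151509320-151509355, forward strand: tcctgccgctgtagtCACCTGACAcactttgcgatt
Adgrf5, chr17:43450371-43450406, forward strand: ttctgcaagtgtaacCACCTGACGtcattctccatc
Adgrg1, chr8:95007627-95007662, forward strand: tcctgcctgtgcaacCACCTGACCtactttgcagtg
Adgrg6, chr10:14431612-14431647, reverse strand: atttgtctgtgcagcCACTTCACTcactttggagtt
Adgre5, chr8:83725889-83725924, reverse strand: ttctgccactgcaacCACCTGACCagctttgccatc
Adgrb2, chr4:130011892-130011927, forward strand: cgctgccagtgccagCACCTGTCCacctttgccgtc
Adgrb3, chr1:25228445-25228480, reverse strand: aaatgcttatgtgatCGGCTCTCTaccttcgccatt

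The first capital codon encodes histidine in 9 of the 10 members and arginine in Adgrb3. The middle codon encodes leucine in 9 members and phenylalanine in Adgrg6. After the position of the cut stands threonine in 8 members and serine in Adgrb2 and Adgrb3. The sequence does not show whether a member is in fact cut there, which was not tested. Adgrb3, the member with arginine, was also among those with few reads in these cells, as described with the Bai receptors.

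Total counts were 14359990 and 13715837 in the Pd1fl/fl and 24147311 and 14157027 in the Pd1cKO-Tie2 libraries. Pdcd1, the deleted gene, had 32 counts in Pd1fl/fl library 1 and 0 in the 3 other libraries, so its loss could not be seen against Pd1fl/fl library 2. Levels are given as CPM, the count relative to the library's total after scaling by edgeR's TMM method, and the quasi-likelihood test of edgeR was applied to 15909 genes. A gene was called by the study's own criterion, a p of 0.05 or less together with a difference of 2-fold or more.

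Of the 10 adhesion receptors, 9 passed the filter on low counts and could be tested, and 0 of these met the criterion in either direction, where 4.02% of all tested genes did. Genes higher in Pd1cKO-Tie2 cells made up 1.41% of all tested genes and genes lower there 2.61%. An unadjusted p of 0.05 or less was found for 1 of the 9, Adgre5, against 6.39% of all genes. After Benjamini-Hochberg adjustment 0 of the 9 had an adjusted p under 0.05 in edgeR, and the share of all genes was 0%. DESeq2 on the same genes gave 0 of the 9 as well, with 116 among all genes. The median log2 fold change (Pd1cKO-Tie2 over Pd1fl/fl) was 0.14 over the 9 receptors and -0.004 over all tested genes. With 2 libraries against 2, the exact permutation test of a single gene cannot give a two-sided p below 0.33.

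**Figure D1:**
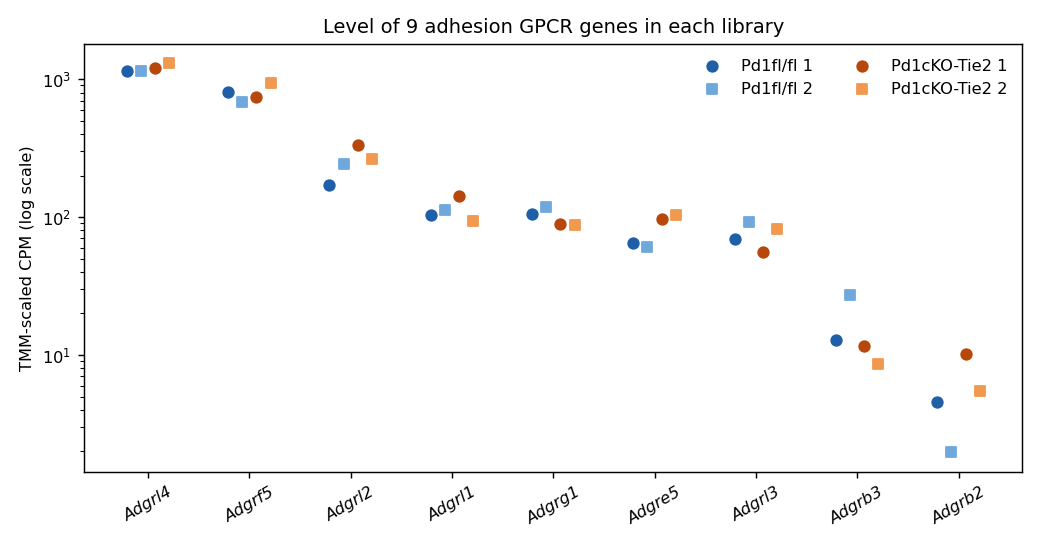
TMM-scaled CPM (log axis) of the 9 tested adhesion receptor genes, with 1 point per library and colours for the genotypes. Adgrl4 and Adgrf5 lie far above the rest, and for Adgre5 both Pd1cKO-Tie2 points lie above both Pd1fl/fl points.

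Adgrl4 and Adgrf5 supplied most of the adhesion receptor reads. Adgrl4 (Eltd1) is an orphan receptor of vascular endothelium whose gene is active during angiogenesis. It stands on chromosome 3 (GRCm38, bases 151437887 to 151545086). Reads counted were 16445 and 16226 in the controls and 29021 and 17785 in Pd1cKO-Tie2 libraries. On the CPM scale this was 1138.3 and 1140.6 against 1212.0 and 1299.9. The Pd1fl/fl libraries were nearly equal, and both Pd1cKO-Tie2 libraries were above them. The log2 fold change was 0.14 (standard error 0.11), with a 95% interval from -0.13 to 0.41 and an adjusted p of 0.979 in edgeR. As a fold, the interval ran from 0.915 to 1.33, which does not hold a 2-fold change. In bulk RNA, for this gene as for those below, fewer cells of a type and less RNA per cell cannot be told apart.

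Adgrf5 (Gpr116) controls surfactant levels in the lung, where epithelial cells use it, and is also found in endothelium. It lies on chromosome 17, from 43389466 to 43459557 in the tables. The CPM was 813 and 687 in the controls and 744 and 931 in Pd1cKO-Tie2 libraries. The genotypes overlapped, since Pd1cKO-Tie2 library 1 lay between the Pd1fl/fl libraries. The log2 fold change was 0.16 (standard error 0.16, 95% interval -0.25 to 0.56). Of the summed CPM of the 10 members, Adgrl4 and Adgrf5 together took 78.5% and 73.6% in the controls and 72.6% and 77.6% in Pd1cKO-Tie2 libraries. Adgrl4 alone held between 45.0% and 45.9% in each library. The Adgrf5 share varied as much within a genotype as between them, 27.7% and 32.7% in the controls and 27.6% and 32.4% in Pd1cKO-Tie2.

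The latrophilins Adgrl1, Adgrl2 and Adgrl3 bind teneurins and Flrt proteins on neighbouring cells and are best known from synapses. Adgrl2 was the most abundant of them by reads. Its CPM was 172 and 241 in the controls and 331 and 264 in Pd1cKO-Tie2 libraries, from 2487 and 3431 against 7929 and 3613 counts. Neither Pd1cKO-Tie2 library reached down to the controls, although library 2 exceeded the higher control by less than the gap between the controls. The log2 fold change was 0.53 (standard error 0.22, 95% interval -0.03 to 1.08) with a p of 0.0585 in edgeR and an adjusted p of 0.808. Leaving out Pd1fl/fl library 1 or Pd1cKO-Tie2 library 1 brought the log2 fold change to 0.30 or 0.36. Without Pd1fl/fl library 2 or Pd1cKO-Tie2 library 2 it was 0.79 or 0.68.

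Adgrl1, the classical receptor of the spider toxin alpha-latrotoxin, was at 103 and 113 CPM in the controls and 142 and 93.3 CPM in Pd1cKO-Tie2 libraries. The Pd1cKO-Tie2 libraries enclosed the controls, and the log2 fold change of 0.13 (95% interval -0.50 to 0.76) became -0.20 without Pd1cKO-Tie2 library 1. Adgrl3 was at 69.7 and 92.6 CPM in the controls and 55.5 and 81.6 CPM in Pd1cKO-Tie2 libraries. Here too the genotypes overlapped, with a log2 fold change of -0.25 (95% interval -0.95 to 0.46) that was 0.01 without Pd1cKO-Tie2 library 1. Counting can be uncertain for these genes, as 1343 exon bases of Adgrl1 and 1582 of Adgrl3 are shared with genes on the other strand and the use of strand is not given in the sources used here.

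Adgre5 showed the smallest p of the 9. It encodes Cd97, an adhesion receptor of leukocytes that binds Cd55 and is also made by other cells. The gene lies on chromosome 8 from 83723251 to 83741326. Counts were 944 and 869 for the controls against 2321 and 1422. The CPM was 65.3 and 61.1 against 96.9 and 104, or 63.2 ± 3.01 against 100.4 ± 4.95 (SD, n = 2). The libraries of each genotype differed by 1.07-fold, and the genotypes did not overlap. The fold change was 1.59 with a 95% interval from 1.13 to 2.23, so Adgre5 met the p but not the fold of the criterion. The p was 0.0163, rank 317 of all tested genes, and the adjusted p was 0.735 in edgeR. Without Pd1fl/fl library 2 the p was 0.0691 and without Pd1cKO-Tie2 library 2 it was 0.0752, at a log2 fold change of 0.62 in both cases. Exons of Adgre5 share 895 bases with Ddx39 on the other strand, and 16.5% of its 50-base stretches occur in transcripts of that gene, so part of these reads may belong to Ddx39. Its ligand Cd55 was at 12.3 ± 2.73 CPM in the controls and 7.86 ± 4.60 CPM with Tie2-Cre (SD, n = 2), with a log2 fold change of -0.65 and a 95% interval from -2.16 to 0.87.

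**Figure D2:**
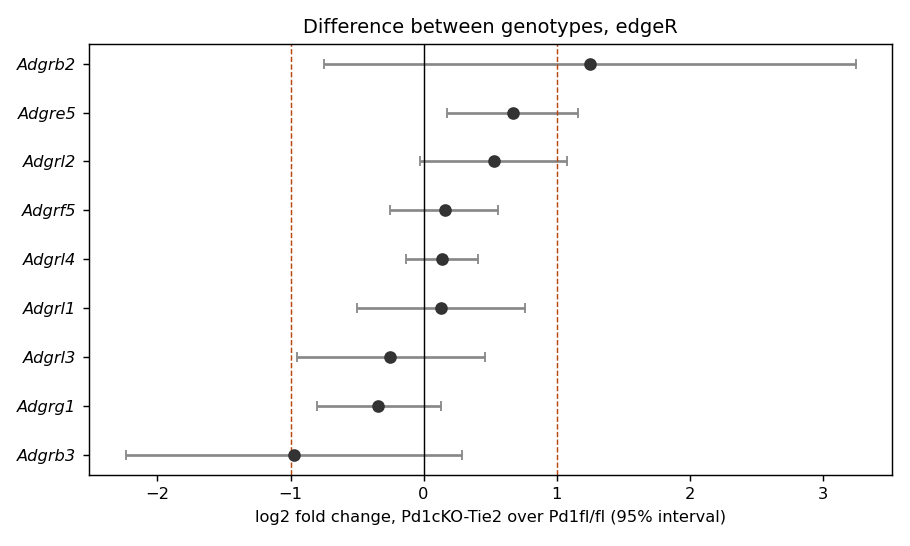
Log2 fold change (Pd1cKO-Tie2 over Pd1fl/fl) of the 9 tested receptors with 95% intervals from edgeR, where dashed lines mark a 2-fold change. The interval of Adgre5, from 0.18 to 1.16, is the one that leaves out 0, and those of Adgrb2 and Adgrb3 are the widest.

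Adgrg1 (Gpr56) binds collagen III and transglutaminase 2 and is used by neural progenitors, oligodendrocyte precursors and microglia. It was at 106 and 118 CPM in the controls and 88.9 and 88.2 CPM in Pd1cKO-Tie2 libraries. Both Pd1cKO-Tie2 libraries were below both controls and nearly equal to each other. The log2 fold change was -0.34 (standard error 0.19, 95% interval -0.80 to 0.13, adjusted p = 0.914 in edgeR). Adgrg6 (Gpr126), which Schwann cells need to form myelin and which binds collagen IV, was almost absent from these libraries. It had 6 counts in Pd1fl/fl library 2, 0 in both Pd1cKO-Tie2 libraries, and was not listed for Pd1fl/fl library 1, where it can hold at most 4. At this depth a count of 0 allows up to 0.219 CPM by counting error alone, and the gene was too rare for a test.

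The Bai receptors were the least abundant of the tested members. Adgrb2 had 66 and 28 counts in the controls and 241 and 75 counts in Pd1cKO-Tie2 libraries, or 4.57 and 1.97 against 10.1 and 5.48 CPM. The genotypes did not overlap, but the libraries of a genotype differed by 2.32-fold and 1.84-fold. Its fold change of 2.38 had a 95% interval from 0.594 to 9.52 and a p of 0.176 in edgeR. Adgrb3, which binds C1q-like proteins at synapses, was lower on average in Pd1cKO-Tie2 cells, with 12.8 and 27.1 CPM in the controls and 11.7 and 8.55 CPM in Pd1cKO-Tie2 libraries. Pd1fl/fl library 2 was far above the 3 others. The log2 fold change was -0.97 (standard error 0.51, 95% interval -2.24 to 0.29), and it was -0.33 without that library. Without Pd1fl/fl library 1 it was -1.42 with a p of 0.0337, the one case in which leaving out a library brought a member past the criterion.

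In 6 of the 9 tested receptors the libraries of the genotypes did not overlap, where 35.8% of all tested genes had this property. Higher in Pd1cKO-Tie2 were Adgrl2, Adgrl4, Adgre5 and Adgrb2 (4 of 9, against 17.7% of all genes). Lower were Adgrg1 and Adgrb3 (2 of 9, against 18.1%). The members are few and were not chosen blind to earlier results of these data, so nothing particular to them was read from these counts.

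Between genes the levels were compared as CPM per kilobase of exon. Adgrl4 stood at 261 CPM per kilobase, above 99.3% of the tested genes, and Adgrf5 at 88.1, above 97.0%. The ranges of their 4 libraries, 248 to 284 and 76.3 to 103, did not overlap each other or those of the members below them. Adgre5 (21.8), Adgrg1 (18.5), Adgrl2 (17.8) and Adgrl1 (13.1 CPM per kilobase) followed, and each overlapped its neighbour. Adgrl3 was at 4.22 CPM per kilobase, and its range did not reach Adgrl1 or the Bai receptors. Adgrb2 (0.851) and Adgrb3 (0.811 CPM per kilobase) overlapped, and Adgrg6 was last. The choice of length changed part of this order: with the longest transcript in place of all exons, Adgrl2 moved to 41.7 CPM per kilobase and to the third place. Adgrb3 then stood at 2.72 and above Adgrb2 at 1.07. Adgrl3 rose to 11.0, nearer to Adgrl1 at 13.8, and the ranges by that length were not compared.

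**Figure D3:**
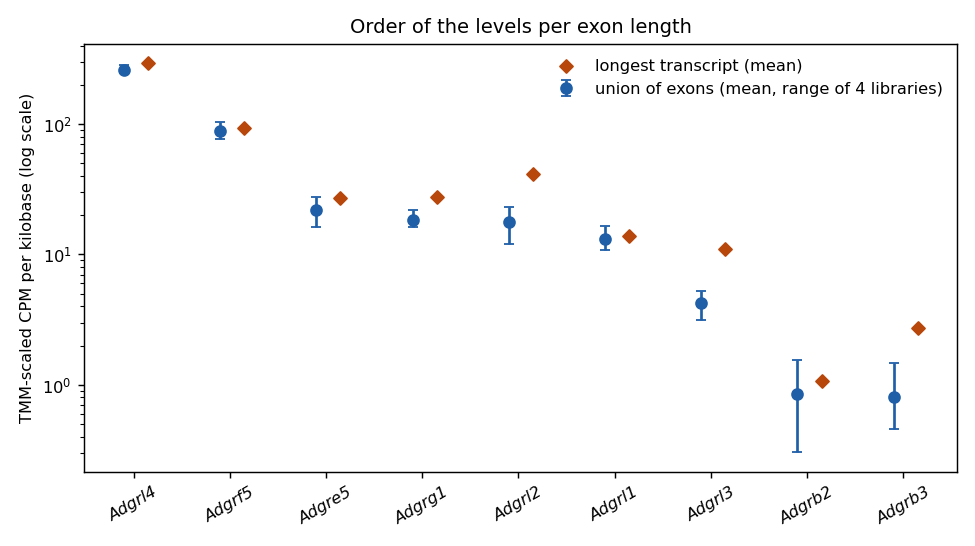
Mean TMM-scaled CPM per kilobase (log axis) of the members other than Adgrg6, per union of exons with the range of the 4 libraries (circles) and per longest transcript (diamonds). Adgrl4 and Adgrf5 lead by either length, while Adgrl2, Adgrl3 and Adgrb3 shift upwards with the longest transcript.

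Markers of the sorted cells and of other cell types were summed in each library, since several members are also used outside endothelium. The 18 endothelial markers, Cldn5 and Kdr among them, summed to 17213.7 and 16219.8 CPM in the controls and 20885.9 and 21711.8 CPM in Pd1cKO-Tie2 libraries, and 0 of them lacked counts in any library. In 17 of the 18 both Pd1cKO-Tie2 libraries exceeded both controls, against 17.7% of all tested genes. An unadjusted p of 0.05 or less in edgeR was found for 9 of them, against 6.39% of all genes, and 0 met the criterion. The 12 microglia and macrophage markers summed to 2105.6 and 2583.2 CPM in the controls and 789.9 and 1781.7 CPM in Pd1cKO-Tie2 libraries. Of the 12, 9 were lower in both (18.1% of all tested genes) and 2 met the criterion as lower (2.61% of all tested genes). The 14 astrocyte and radial glia markers ran from 1512.1 to 1556.4 CPM in the controls and from 1189.6 to 1232.7 CPM in Pd1cKO-Tie2 libraries, and 2 met the criterion as lower. For the neuronal markers, of which 15 of 16 were in the tables, the sums overlapped, at 1070.6 and 1480.9 against 1262.6 and 1072.7 CPM.

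These sums stand beside the members as follows. Adgrl4, Adgrl2 and Adgre5 were higher in both Pd1cKO-Tie2 libraries, which had more endothelial marker RNA. Adgrf5 overlapped between the genotypes, at 813 and 687 CPM in the controls and 744 and 931 CPM in Pd1cKO-Tie2 libraries. Within each genotype, Adgrf5 and Adgre5 were higher in the library with the larger endothelial sum. Adgrl2 ran the other way, at 172 and 241 CPM in the controls and 331 and 264 CPM in Pd1cKO-Tie2 libraries. Adgrl4 was nearly equal in the controls and higher in Pd1cKO-Tie2 library 2. Adgrg1 was lower in both Pd1cKO-Tie2 libraries, as were the microglial sum and the astrocyte and radial glia sum. The oligodendrocyte lineage sum overlapped between the genotypes. Of the 13 tested astrocyte and radial glia markers 10 were lower and 3 higher, among them Nes, at 198 and 122 against 216 and 285 CPM. Between the Pd1cKO-Tie2 libraries Adgrg1 hardly differed, at 88.9 and 88.2 CPM, while the microglial sum was 789.9 and 1781.7 CPM. Adgrb3 and Adgrl3 were highest in Pd1fl/fl library 2, which also had the largest neuronal sum. The other libraries did not follow the order of that sum. Pd1cKO-Tie2 library 1, at a neuronal sum of 1262.6 CPM, had the lowest Adgrl3, at 55.5 CPM. Adgre5 was higher in the libraries in which Ptprc (Cd45), the leukocyte protein labelled in the sort, was lower, at 54.5 and 67.8 CPM against 86.2 and 138 CPM. The 12 markers of other leukocytes summed to 913 CPM in Pd1fl/fl library 1, of which Ngp alone gave 412 CPM. In the 3 others the sum was between 6.29 and 60.6 CPM. Adgre5 was at 65.3 and 61.1 CPM in the Pd1fl/fl libraries. The part of other cell types in the differences between the genotypes was not tested. For the oligodendrocyte lineage the 10 markers summed to 207 and 126 CPM in the controls and 224 and 122 CPM in Pd1cKO-Tie2 libraries, for pericytes and smooth muscle to 5649.5 and 3637.4 against 3746.1 and 3747.6 CPM, and for erythroid cells to 645 and 556 against 574 and 1068.1 CPM.

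**Figure D4:**
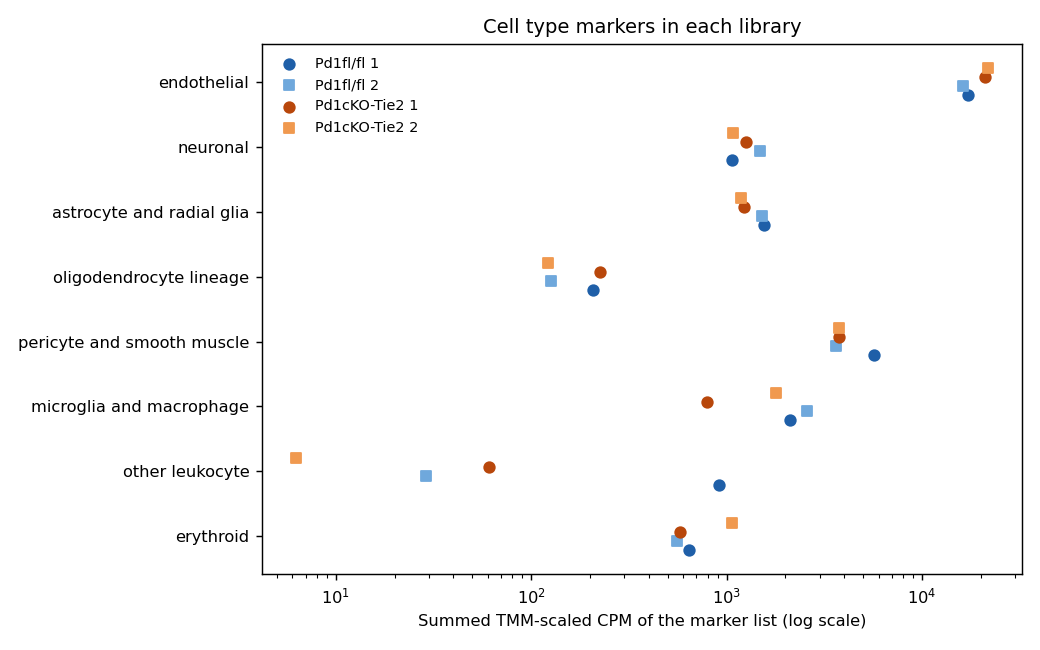
Summed TMM-scaled CPM (log axis) of 8 lists of cell type markers in each library. The endothelial sum is the largest in every library and higher in both Pd1cKO-Tie2 libraries, and the microglia and macrophage sum is lower there.

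The members were also set against the endothelial sum, a scale chosen after the values were seen. Cldn5 and Slc2a1 were its largest parts, at 5504.6 and 3535.7 CPM in Pd1fl/fl library 1, where the sum was 17213.7 CPM. Both were higher in each Pd1cKO-Tie2 library, while the paper reports less CLAUDIN5 and GLUT1 (the protein of Slc2a1) in Pd1cKO-Tie2 brain vessels. Whether the sum follows the amount of endothelium was not tested. Because that sum was larger in both Pd1cKO-Tie2 libraries, this scale lowers the log2 difference of every gene alike, by -0.35 for the means, and leaves the order of the members as it was. Adgrl4 was 6.61% and 7.03% of that sum in the controls and 5.80% and 5.99% in Pd1cKO-Tie2 libraries. Its log2 fold change of 0.14 is smaller than the common shift, so its sign had to turn, and nothing about Adgrl4 itself was read from that. Adgrg1 was 0.613% and 0.729% against 0.426% and 0.406%. Adgrl3, at 0.405% and 0.571% against 0.266% and 0.376%, no longer overlapped on this scale, and Adgrl2 did overlap. Adgre5 remained higher in both Pd1cKO-Tie2 libraries, at 0.464% and 0.479% against 0.380% and 0.377%. In all, 5 of the 9 receptors did not overlap on this scale, where 46.1% of all tested genes did not. Of the 9, 4 were lower in Pd1cKO-Tie2 libraries (40.1% of all genes) and 1 was higher (5.95%).

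**Figure D5:**
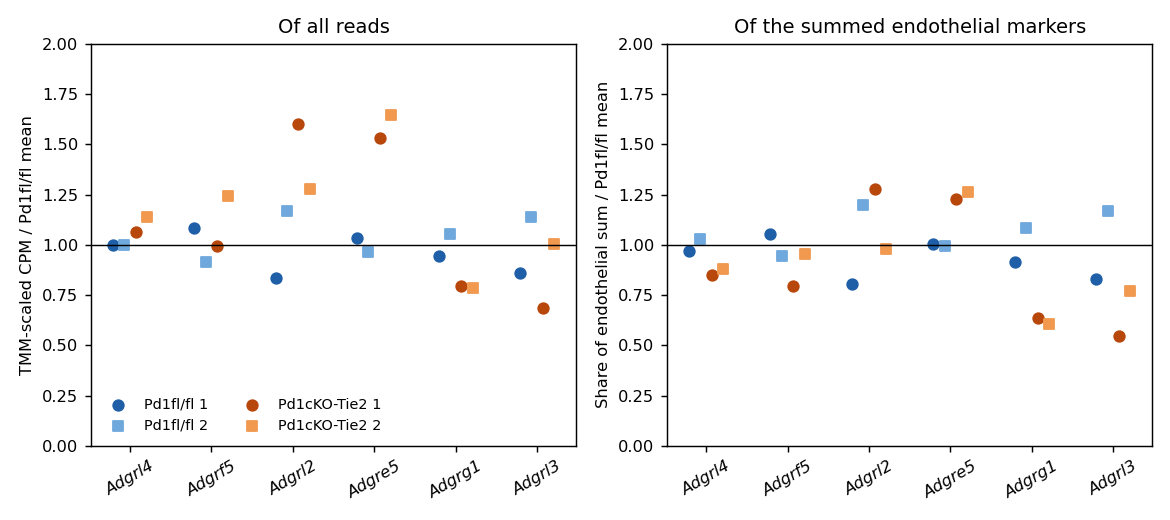
Adgrl4, Adgrf5, Adgrl2, Adgre5, Adgrg1 and Adgrl3 in each library relative to the Pd1fl/fl mean, as CPM (left) and as a share of the summed endothelial markers (right), with linear axes that start at 0. Adgre5 lies above 1 in both Pd1cKO-Tie2 libraries in both panels, whereas Adgrl4 moves from above to below 1 with the shift of -0.35 (log2) that all genes share.

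Known binding partners and signal carriers of these receptors were listed by function and tested in the same fit. Of 10 genes for latrophilin ligands, teneurins and Flrt proteins among them, 0 met the criterion in either direction. Their median log2 fold change was -0.20, against -0.004 over all tested genes. Tenm3, a teneurin, had a log2 fold change of -1.24 with a 95% interval from -3.45 to 0.98. Of 20 ligands of the other members 18 were in the tables, 15 could be tested and 0 met the criterion. Col4a2, a collagen IV chain of the vascular basement membrane, was at 1333.0 ± 106 CPM in the controls and 1676.9 ± 79.6 CPM with Tie2-Cre (SD, n = 2), a log2 fold change of 0.33 (95% interval 0.05 to 0.61). Tgm2, transglutaminase 2, was at 12.8 ± 0.484 against 19.8 ± 2.05 CPM (SD, n = 2), with a log2 fold change of 0.63 (95% interval -0.27 to 1.53). Among 19 tested G protein subunits and arrestins, 0 met the criterion. The largest departures by p were Gnb1, with a log2 fold change of 0.37 (95% interval 0.06 to 0.68), and Gnai1, with -0.92 (95% interval -1.74 to -0.10). Col4a2, Gnb1 and Gnai1 were named for their small p, and their adjusted p was 0.738, 0.738 and 0.753 in edgeR. An unadjusted p of 0.05 or less was found for 0 of the 10, 1 of the 15 and 2 of the 19 genes, against 6.39% of all genes. The criterion was met by 4.02% of all tested genes, a share at which lists this short hold few or no calls. Nothing about the partners was read from these counts.

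The rest of the family gave 14 of 20 further genes in the tables, of which 12 could be tested. Of these, 5 were higher and 7 lower, with a median log2 fold change of -1.08 (-0.004 over all tested genes). Several of the lower ones had few counts, among them Adgrb1 with 32 and 13 in the controls and 4 and 0 in Pd1cKO-Tie2 libraries. By the criterion 1 was higher and 1 lower, against 1.41% and 2.61% of all tested genes, and 0 passed the adjustment in edgeR. Gpr124 (Adgra2) was the higher one, at 19.9 and 33.1 CPM in the controls and 104 and 97.6 CPM in Pd1cKO-Tie2 libraries, a log2 fold change of 1.93 (95% interval 1.15 to 2.70). That interval lies above the upper bound of each tested member but Adgre5 and Adgrb2, while the difference between the genes was not tested. The adjusted p of Adgra2 was 0.735 in edgeR, 0.631 in limma-voom and 0.000128 in DESeq2 on the same genes. Per kilobase, Adgra2 ran from 3.45 to 18.0 CPM over the 4 libraries, a range that overlapped that of Adgrl1 (10.9 to 16.6). Adgre4, a receptor of the macrophage family of Adgre1 (F4/80), was the lower one, at 40.1 and 45.1 CPM in the controls and 5.14 and 18.1 CPM in Pd1cKO-Tie2 libraries. Its log2 fold change was -1.88 (95% interval -3.40 to -0.36), and without Pd1fl/fl library 2 its p was 0.0604. Adgre1 was at 33.2 and 60.8 against 15.3 and 31.1 CPM, with a log2 fold change of -1.02 (95% interval -2.20 to 0.17). Both genes ran beside the lower microglia and macrophage sum in Pd1cKO-Tie2 libraries, and the part of these cells was not tested.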

How the data were processed

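RNA of P0 brain endothelial cells was sequenced on an Illumina HiSeq instrument. The authors deposited 4 tables, each with 1 Pd1cKO-Tie2 and 1 Pd1fl/fl library, which hold raw read counts per gene and CPM values of the authors (the count over the library's total). The CPM served only to recover the total counts, 13715837 to 24147311. The tables also hold the authors' fold changes and p-values, which were not used. The submitters' processing notes list Bowtie2 2.2.3, TopHat2 2.0.12, HTSeq 0.6.0 and mm9, with no roles, whereas the gene positions in the tables are of GRCm38: 90.1% of all genes and 8 of the 10 members equal GENCODE M21. Use of strand is not given in the sources used here. After 10 broken lines were skipped, the tables were joined to 21578 genes, and 0 counts differed between tables. Where a library had no line for a gene, 0 was entered, although up to 4 counts may be missing.

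Counts were tested with edgeR 4.0.16 (R 4.3.3) by its quasi-likelihood F test after filterByExpr (15909 genes) and TMM scaling, with no covariate and Benjamini-Hochberg adjustment over all tested genes. The test was first run on simulated counts with changes larger than the 2-fold of the criterion, so smaller changes were not covered by that check. Standard errors and 95% intervals were derived from the F statistic of each gene. The common biological coefficient of variation was 0.610. Alternatives were DESeq2 1.42.0 on all or on the filtered genes, limma-voom (limma 3.58.1), other filters and scalings, thinning to the smallest total, and leaving out each library. Exon lengths, overlaps and 50-base stretches came from GENCODE M21 (Python 3.11.15, Biopython 1.88). The proteolysis site was found in the translated coding sequence by its pattern of 2 cysteines, a serine or threonine and a phenylalanine. The members and lists were chosen with earlier results of these data known. All members are named. From each list, genes past the criterion are named or, where there were 0, the 2 with the smallest p (1 gene of the latrophilin ligands is not reported here), and from the wider family also those with the highest level.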

Additional observations from a re-analysis of the deposited data

How the results depend on the processing

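No paired analysis was possible because the genotypes share only 1 replicate number in the labels. Across 13 alternatives, the number of receptors past the criterion stayed at 0, except that it was 1 without Pd1fl/fl library 1 (range 0 to 1 with each library left out), which was Adgrb3. An unadjusted p of 0.05 or less was found for 2 receptors, Adgre5 and Adgrl2, with either form of DESeq2, limma-voom, no filter, and a filter that asks for 10 counts in each library, and for 0 to 2 with each library left out. The receptors with an adjusted p under 0.05 were 0 under every one of the 13. Over all genes that number was 114 and 116 in DESeq2 on all and on the filtered genes, against 0 in edgeR. The direction of 3 receptors turned with a library left out: Adgrl1 (-0.20, range with each library left out -0.20 to 0.40) and Adgrl3 (0.01, range -0.55 to 0.01) without Pd1cKO-Tie2 library 1, and Adgrf5 (-0.01, range -0.01 to 0.32) without Pd1cKO-Tie2 library 2. Which property of these libraries turned them was not tested. Relative to the endothelial sum the log2 ratio was -0.22 for Adgrl1, -0.21 for Adgrl4 and -0.19 for Adgrf5, sign changes that come from the shift of -0.35 which that scale gives every gene. Adgre5 had a log2 fold change from 0.61 to 0.72 and a p from 0.00767 to 0.0752 over the 13 alternatives, and a log2 ratio of 0.32 relative to the endothelial sum. The interval of Adgrb2, from -0.75 to 3.25, shows how little 28 to 241 counts and 2 libraries per genotype can settle.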

Other observations

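Among the adhesion receptors outside the 10 members, several were counted in part of the libraries. Adgrg2 had 122 counts in control (Pd1fl/fl) library 1 and 0 in the 3 others. Adgrd1 had 9 and 0 counts in the controls and 0 and 51 counts in Pd1cKO-Tie2 libraries. Neither passed the filter on low counts. Adgrb1, the third Bai receptor, had 32 and 13 counts in the controls and 4 and 0 counts in Pd1cKO-Tie2 libraries, with a 95% interval of the log2 fold change from -9.06 to 1.02. Adgrv1, a very large receptor of sensory hair cells, was at 7.48 and 10.3 CPM in the controls and 1.00 and 6.80 CPM in Pd1cKO-Tie2 libraries.

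Other family members had intervals that included 0. Adgrg3 (Gpr97) was at 45.5 and 41.3 CPM in the controls and 50.2 and 52.6 CPM in Pd1cKO-Tie2 libraries (log2 fold change 0.24, 95% interval -0.35 to 0.84). Celsr2, a cadherin-type member of the planar polarity system, was at 56.8 and 68.6 against 84.6 and 47.9 CPM. Adgra3 (Gpr125), the nearest relative of Gpr124, was at 13.8 and 10.1 CPM in the controls and 20.5 and 22.1 CPM in Pd1cKO-Tie2 libraries, a log2 fold change of 0.83 with a 95% interval from -0.11 to 1.78.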
